A study of Rattus norvegicus with 10 samples.

Results

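The proteasome genes of rat liver were followed across 5 diets on 10 Affymetrix Rat 230 2.0 arrays. Members were all probe sets whose only platform symbol begins with Psma, Psmb, Psmc, Psmd, Psme, Psmf or Psmg followed by a number. The rule found 60 probe sets for 46 genes among the 31099 probe sets of the array. They comprise 7 alpha-ring and 6 standard beta-ring genes of the core, the 3 immunoproteasome genes Psmb8, Psmb9 and Psmb10, and 6 ATPase and 11 non-ATPase genes of the cap. The remaining genes are 3 activators, 1 inhibitor, 7 assembly chaperones, and Psmc3ip and Psme3ip1, which carry a matching symbol but do not encode proteasome subunits. Another 6 probe sets that name a proteasome gene together with a further gene were not members, so Psmb6 and Psme3 are not described.

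Liver came from male Wistar rats, with 2 arrays per diet and 12 weeks of feeding. One group ate chow. The other 4 ate diets with 42% of the energy as fat, with the fat given as fish oil (cod liver oil in the study design), coconut fat, olive oil or lard. All animals fasted overnight and were killed with carbon dioxide, and the ventral lobe was clamp-frozen, so every comparison is within the fasted state. No genotype or drug differed between the groups. Nothing in the sample descriptions ties an array to an individual litter or cage, and p-values measure only the spread between the arrays of a diet.

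The proteasome is the cell's main machine for the breakdown of proteins tagged with ubiquitin. Its barrel-shaped core stacks outer alpha rings on inner beta rings, and the beta rings hold the cutting sites. A cap on the barrel binds ubiquitin, removes it and feeds the unfolded protein in with a ring of ATPases. When cells meet interferon, Psmb8, Psmb9 and Psmb10 can replace the cutting subunits Psmb5, Psmb6 and Psmb7. The resulting immunoproteasome yields peptides suited to presentation on MHC class I, and leukocytes express it without such a stimulus. In hepatocytes the standard proteasome predominates in the resting state.

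The signals are MAS5 values on a linear scale, scaled to a trimmed mean of about 100 on each array. Median signal was 28.7 to 31.9 on 9 arrays and 36.8 on the second lard array. Pearson correlation of log2 values was 0.934 to 0.949 between arrays of 1 diet and 0.922 to 0.949 between diets. The 3′ to 5′ signal ratio of the control gene GAPDH was 0.959 to 1.19, that of beta-actin 2.10 to 2.75 and that of hexokinase 0.329 to 5.97. The 9 hepatocyte markers on the array had a summed signal between 73318.0 and 89478.9 in every sample, and none lay at the level of the array's blank controls (a signal of 12.8 or less). Tests used limma on log2(signal + 3.1), so fold changes are on that scale, with Benjamini-Hochberg adjustment over all 18625 probe sets that passed a filter on dim signals. Of the 60 member probe sets, 56 passed and all 46 genes kept at least 1. A gene is represented by its brightest probe set unless stated.

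In fish-oil livers the immunoproteasome genes and the standard proteasome genes lay on opposite sides of the other high-fat diets. Psmb8, which encodes the inducible chymotrypsin-like subunit, was 2.65-fold lower with fish oil than the mean of lard, olive oil and coconut fat, and was the only one of the 56 member probe sets to pass the adjusted threshold of 0.05 in that comparison. Across all probe sets tested, 0.424% passed. Psmb9 and Psmb10 also had their lowest diet mean with fish oil, without passing the test. Of the 30 core and cap genes, 29 had a positive fold change in that same comparison, and 0 of them passed, while 47.4% of all probe sets were positive.

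Psmb8 had signals of 235.6 and 225.5 with fish oil, a mean of 231 ± 7.14 (SD, n = 2 arrays). It had 865.2 and 505.5 with lard, 730.2 and 584.4 with olive oil, 624.0 and 463.6 with coconut fat, and 429.6 and 786.7 with chow. Both fish-oil arrays lay below all 8 other arrays, while the other diets overlapped one another. The log2 difference from the other 3 high-fat diets was -1.40 (SE 0.25, limma adjusted p = 0.0426). Against chow it was -1.32 (SE 0.30, limma adjusted p = 0.181), which did not pass. The call was lost in a fit without the intensity trend of the variance (adjusted p = 0.238). It was also lost without the first lard array (0.0855), the first olive oil array (0.0771), the first (0.0951) or second (0.0523) coconut fat array, or the first (0.156) or second (0.197) fish-oil array, all as limma adjusted p, while the log2 difference stayed between -1.53 and -1.27.

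Psmb9, the inducible counterpart of Psmb6, had signals of 200.7 and 197.2 with fish oil, 548.4 and 282.1 with lard, 405.8 and 335.6 with olive oil, 392.0 and 458.7 with coconut fat, and 262.2 and 709.8 with chow. The fish-oil arrays were again the lowest pair, but the chow arrays stood far apart. The log2 difference from the other 3 high-fat diets was -0.98 (SE 0.33, limma adjusted p = 0.26). Against chow it was -1.11 (SE 0.40, limma adjusted p = 0.523), and it was -1.82 without the first chow array and -0.39 without the second.

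Psmb10, the inducible counterpart of Psmb7, had signals of 139.1 and 153.0 with fish oil, 253.2 and 211.6 with lard, 246.1 and 177.8 with olive oil, 187.4 and 191.1 with coconut fat, and 128.3 and 172.3 with chow. Here fish oil and chow overlapped, and every array of the other 3 diets was above both. The log2 difference of fish oil from those diets was -0.51 (SE 0.18, limma adjusted p = 0.279), and that of lard from chow was 0.63 (SE 0.22, limma adjusted p = 0.507). All 3 immunoproteasome genes had both fish-oil arrays below the 6 arrays of the other high-fat diets, an arrangement that 6.8% of all probe sets showed.

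**Figure D1:**
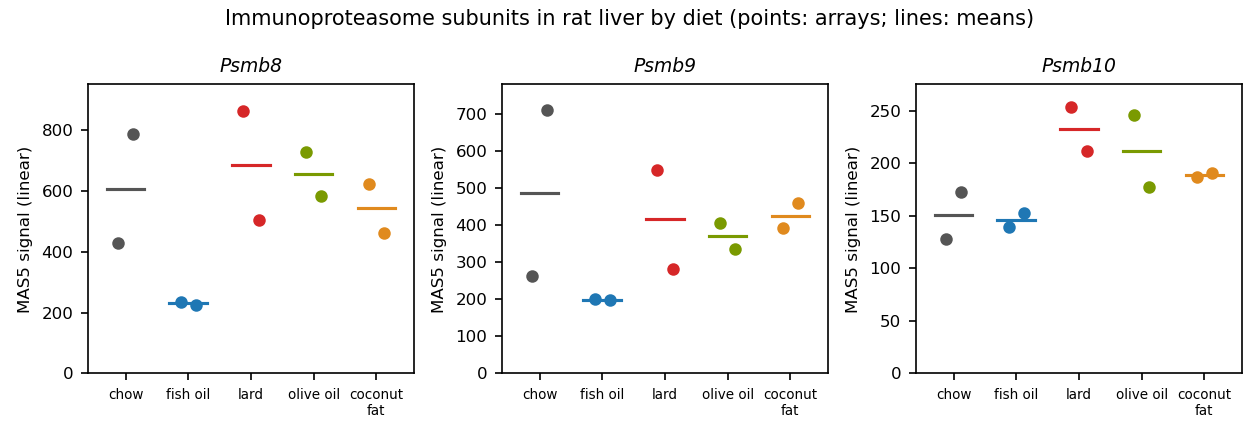
MAS5 signal (linear axis from 0) of Psmb8, Psmb9 and Psmb10 by diet; points are single arrays and lines are means of 2 arrays. The fish-oil points of Psmb8 (225.5 and 235.6) and Psmb9 (197.2 and 200.7) lie below every other point, while those of Psmb10 overlap chow.

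The promoters of the immunoproteasome genes are shown with those of Psmb2 and Psmc2, the standard genes with the smallest unadjusted p in the fish-oil comparison with the other high-fat diets, because these are the members whose values the results turn on. Each window runs from 250 bases before to 50 bases after the gene's start in RefSeq (build GRCr8), printed 5′ to 3′ on the gene's strand, and capitals mark matches to 4 motifs on either strand. The motifs are the antioxidant response element core TGANNNNGC, the interferon-stimulated response element core, a pair of GAAA repeats with any 2 bases between them, the gamma-activated site TTCNNNGAA and the CCAAT box (CCAAT). In Psmb2 a CCAAT box and a TGANNNNGC match overlap.
Psmb8, chr20:4656982-4657281, minus strand: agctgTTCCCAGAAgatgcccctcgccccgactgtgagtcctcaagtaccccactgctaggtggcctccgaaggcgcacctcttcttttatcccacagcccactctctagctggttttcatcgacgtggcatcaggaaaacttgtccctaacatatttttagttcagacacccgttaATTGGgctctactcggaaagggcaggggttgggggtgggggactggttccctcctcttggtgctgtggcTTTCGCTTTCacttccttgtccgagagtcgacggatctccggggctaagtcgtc
Psmb9, chr20:4668750-4669049, plus strand: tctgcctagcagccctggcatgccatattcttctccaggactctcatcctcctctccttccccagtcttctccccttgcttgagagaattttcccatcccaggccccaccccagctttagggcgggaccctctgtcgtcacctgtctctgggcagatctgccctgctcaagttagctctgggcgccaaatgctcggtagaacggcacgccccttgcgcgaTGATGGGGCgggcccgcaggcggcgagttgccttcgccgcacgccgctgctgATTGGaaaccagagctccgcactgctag
Psmb10, chr19:50743243-50743542, minus strand: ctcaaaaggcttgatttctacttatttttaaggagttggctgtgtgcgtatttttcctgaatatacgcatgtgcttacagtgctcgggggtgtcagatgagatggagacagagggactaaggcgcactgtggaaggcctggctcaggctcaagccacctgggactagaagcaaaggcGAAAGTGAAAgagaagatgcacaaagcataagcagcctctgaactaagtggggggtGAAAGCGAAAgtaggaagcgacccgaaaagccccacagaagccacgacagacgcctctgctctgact
Psmb2, chr5:144254808-144255107, plus strand: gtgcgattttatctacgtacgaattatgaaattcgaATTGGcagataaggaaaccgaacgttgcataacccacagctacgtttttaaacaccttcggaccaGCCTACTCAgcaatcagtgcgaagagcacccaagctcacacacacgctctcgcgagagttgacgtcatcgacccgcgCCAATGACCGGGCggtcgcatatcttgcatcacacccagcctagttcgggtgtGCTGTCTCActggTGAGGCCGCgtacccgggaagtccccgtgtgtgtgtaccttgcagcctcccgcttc
Psmc2, chr4:14162341-14162640, minus strand: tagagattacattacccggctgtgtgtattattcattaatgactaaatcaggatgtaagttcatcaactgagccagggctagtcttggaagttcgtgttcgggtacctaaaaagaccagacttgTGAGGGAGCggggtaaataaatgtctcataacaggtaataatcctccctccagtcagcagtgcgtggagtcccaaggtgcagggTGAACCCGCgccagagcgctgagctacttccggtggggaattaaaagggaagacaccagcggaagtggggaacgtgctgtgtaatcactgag

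The table held 33469 promoters of this length, among them 40 of the 44 proteasome genes. Psma7, Psmd6, Psmd12 and Psmd14 were not matched. The interferon-stimulated element core occurred in 3.92% of all promoters and in 7 of the 40. These were Psmb8 with 1 match, Psmb10 with 2, Psme2, Psmg4, and 3 of the 26 core and cap promoters (Psma4, Psmb3 and Psmd7). TTCNNNGAA occurred in 8.87% of all promoters and in 4 of the 40, which were Psmb8 and 3 of the 26 core and cap promoters (Psmc6, Psmd3 and Psmd7). TGANNNNGC occurred in 40.5% of all promoters, in 15 of the 26 core and cap promoters, and in Psmb9 alone of the immunoproteasome genes. CCAAT occurred in 37.5% of all promoters, in 14 of the 26 core and cap promoters, and in Psmb8 and Psmb9. Such matches describe letters in a window and not bound sites. Psmb8 and Psmb9 are neighbours of the peptide transporter genes on chromosome 20, in the order Tap2, Psmb8, Tap1, Psmb9.

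Genes of antigen presentation and of the interferon response were compared beside the immunoproteasome. Of 14 MHC class I presentation genes, 13 had a negative fold change with fish oil against the other 3 high-fat diets (median log2 -0.34, against -0.02 over all probe sets), and 0 passed. Of the 18625 probe sets tested, 9801 were negative and 0.424% passed. Tap1, a peptide transporter subunit, had signals of 50.8 and 54.6 with fish oil, 148.2 and 71.0 with lard, 93.9 and 88.3 with olive oil, 113.1 and 112.6 with coconut fat, and 68.4 and 35.7 with chow. Its fish-oil arrays lay below those of the other high-fat diets and between the chow arrays, and the log2 difference from the high-fat diets was -0.91 (SE 0.29, limma adjusted p = 0.237). RT1-S3, a class I molecule, differed by -0.60 (SE 0.16, limma adjusted p = 0.177).

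Of 26 interferon-response genes, 23 had a negative fold change in the same comparison, with a median log2 of -0.42, where 9801 of all 18625 probe sets were negative. Only Igtp, an interferon-inducible GTPase, passed the test, as did 0.424% of all probe sets. Igtp had signals of 209.0 and 157.3 with fish oil, 483.3 and 372.5 with lard, 333.7 and 409.2 with olive oil, 335.1 and 283.2 with coconut fat, and 299.3 and 347.4 with chow. The fish-oil arrays were the lowest, and Igtp fell by 0.99 on the log2 scale against the other high-fat diets (1.99-fold lower, SE 0.17, limma adjusted p = 0.0364). That call was lost without the intensity trend (limma adjusted p = 0.196). It was also lost without the first lard (0.0879), second olive oil (0.0527), first (0.0865) or second (0.0509) coconut fat, or first (0.0645) or second (0.211) fish-oil array, all as limma adjusted p. Gbp2, another interferon-inducible GTPase, differed by -0.80 (SE 0.21, limma adjusted p = 0.157). Against chow, fish oil had 20 of the 26 genes negative (median log2 -0.23), where 9586 of all 18625 probe sets were. Lard had 20 above chow (median log2 0.38), olive oil 16 (0.15) and coconut fat 16 (0.15). Of all probe sets 10299, 9638 and 8925 were above. Ifit2 was 1 of the 6 genes positive with fish oil, at 267.6 and 285.7 against 156.5 and 130.2 with chow. Its log2 difference was 0.94 (SE 0.27, limma adjusted p = 0.345).

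Markers of leukocytes and blood also had low signals in the fish-oil livers. Between fish oil and the other 3 high-fat diets, 9801 of all 18625 probe sets were negative (median log2 -0.02) and 0.424% were called. At that share, 0 called in lists this short carries no weight. All 5 general leukocyte markers had a negative fold change against the other 3 high-fat diets (median log2 -0.52), with 0 called, and their summed signal was 328 to 451 with fish oil against 452 to 628 elsewhere. Kupffer cell and macrophage markers were negative for 9 of 10 (median log2 -0.34), with 0 called, and their summed signal was 3207 to 3585 with fish oil and 3893 to 5000 in the other diets. All 7 lymphocyte and NK cell markers that could be tested were negative (median log2 -0.62), with 0 called. Some of them were dim, with signals of 8.2 to 28.4 for Cd2, 5.1 to 46.4 for Ms4a1 and 12.3 to 49.7 for Nkg7. Cd3d and Cd79b, which were not tested, lay at blank-control level in every diet. Ptprc, which encodes CD45, differed by -0.78 (SE 0.18, limma adjusted p = 0.113). The erythroid gene Alas2 differed by -1.25 (SE 0.38, limma adjusted p = 0.211), by -0.93 without the first olive oil array and by -1.57 without the second. The olive oil signals of Alas2 were 741.9 and 194.0. The other blood gene tested, Hbb, differed by -0.61 (SE 0.19, limma adjusted p = 0.234). The fish-oil arrays of Hbb (4115.5 and 5569.6) overlapped those of olive oil (9323.1 and 5283.7). Hepatocyte markers had a median log2 of -0.03. In whole liver, fewer cells of a type and less RNA per cell cannot be told apart, and the part of these cells in the Psmb8 result was not tested.

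The standard core and cap genes had the reverse pattern across the high-fat diets. Against the mean of lard, olive oil and coconut fat, the 30 genes had a median log2 difference of 0.25 with fish oil, where all probe sets had -0.02, and Psmd1 alone was negative (-0.17, but 0.10 without the first fish-oil array, -0.44 without the second, -0.30 without the first lard array and -0.04 without the second). Of the 30, 12 had a higher signal at an unadjusted limma p under 0.05, where 4.91% of all probe sets did. For 16 genes both fish-oil arrays lay above all 6 other high-fat arrays, an arrangement of 5.96% of all probe sets. The count of 12 was 6 in a fit lacking the intensity trend and 5 without the second fish-oil array, while the number of positive genes stayed between 26 and 30. The largest of these differences was 1.44-fold, for Psmb2.

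**Figure D2:**
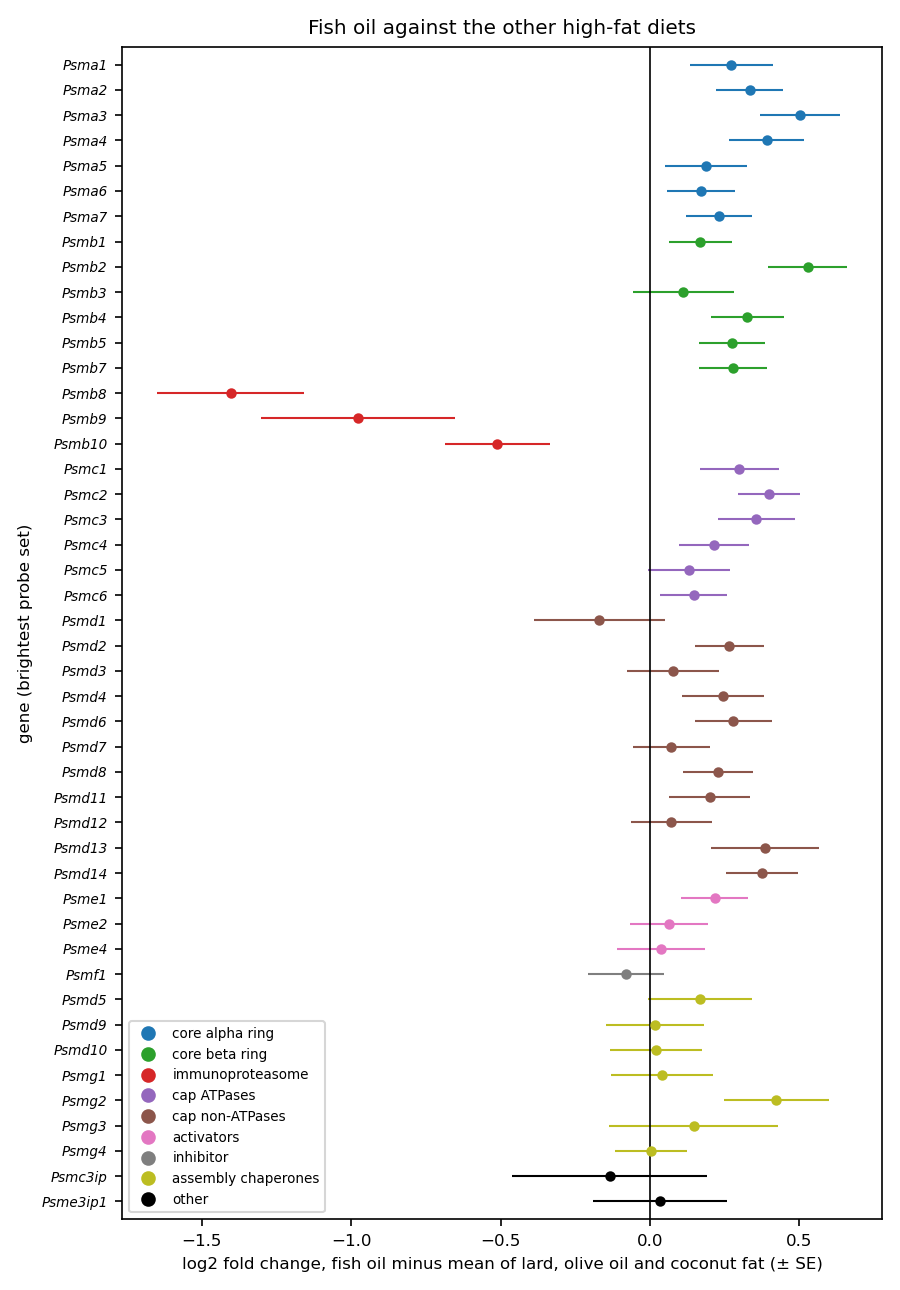
Log2 fold change with its standard error for each of the 46 genes, fish oil minus the lard, olive oil and coconut fat mean, coloured by group. Core and cap genes lie mostly to the right of 0 (median 0.25), and Psmb8, Psmb9 and Psmb10 lie on the left at -1.40, -0.98 and -0.51.

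Fish oil differed little from chow in the same genes. Of the 30 core and cap genes 15 were positive and 15 negative, with a median log2 of 0.00 and 0 at an unadjusted p under 0.05 (7.63% of all probe sets; 48.5% were positive), although the number of positive genes was 23 without the first fish-oil array. Across all members 0 of 56 probe sets passed, where 0.156% of all probe sets did. In the other 3 diets most core and cap genes were lower than in chow. With lard 29 of 30 were negative (median log2 -0.23), with olive oil 30 of 30 (-0.24) and with coconut fat 29 of 30 (-0.20), against medians over all probe sets of 0.04, 0.02 and -0.02. Over all probe sets 44.7%, 48.3% and 52.1% were negative. All of these comparisons share the 2 chow arrays, so the diets are not independent. No member passed the limma test in any of them, where the share of all probe sets that passed was 0.0161% for lard, 0.0268% for olive oil and 0.0% for coconut fat.

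The number of core and cap genes lower than chow at an unadjusted limma p under 0.05 was 9 for lard, 8 for olive oil and 7 for coconut fat, beside 3.31%, 4.03% and 2.89% of all probe sets. Without the first chow array these counts were 1, 1 and 0. Without the second lard array the lard count was 2, and it was 5 after quantile normalization. Without the first olive oil array the olive oil count was 4. The coconut fat count was 2 without the second coconut fat array and 4 without the second chow array. In a fit without the intensity trend the counts were 1, 2 and 3.

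The number of positive genes also moved with the arrays. Without the first chow array it was 7 for lard, 3 for olive oil and 6 for coconut fat. Leaving out the first or second lard array gave 3 or 2 positive genes with lard, and quantile normalization gave 5. With olive oil it was 1 without either olive oil array or after quantile normalization. With coconut fat it was 3 without the second coconut fat array, and without the second chow array both lard and coconut fat had 0. For lard 20 genes had both arrays below both chow arrays, for olive oil 24 and for coconut fat 21, where 16.7%, 17.5% and 19.2% of all probe sets did.

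Taking the 4 high-fat diets as a mean, all 30 core and cap genes were below chow (50.3% of all probe sets were), with a median log2 of -0.16, and 0 members passed where 0.0376% of all probe sets did. Of these genes 8 had an unadjusted limma p under 0.05, against 2.82% of all probe sets that were lower at that level. That count was 0 without the first chow array or the intensity trend, 3 without the second chow array, and 5 without the second lard or second coconut fat array or after quantile normalization. The number of positive genes was 7 without the first chow array, 2 without the first fish-oil array, and 1 without the first lard or first olive oil array. In the F-test for any difference among the 5 diets 0 of 56 member probe sets passed, where 0.14% of all probe sets did. The smallest adjusted p of this F-test was 0.213, for Psmb8. At an unadjusted p under 0.05 the F-test counted 11 of the 56, against 9.4% of all probe sets.

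By diet mean, chow was the highest of the 5 for 14 core and cap genes, fish oil for 14, and lard and coconut fat for 1 each. Olive oil was the lowest for 15, lard for 9, coconut fat for 5 and fish oil for 1. The median spread of the 30 genes between arrays of a diet was an SD of 0.13 on the log2 scale, compared with 0.40 for the 3 immunoproteasome genes and 0.18 over all probe sets in the signal range of the core and cap genes. The median deviation of the 30 genes from their own mean was 0.20 on the first chow array, 0.09 on the second, 0.11 and 0.23 on the fish-oil arrays, and negative on all 6 others. The 3′ to 5′ ratio of hexokinase was 0.883 and 0.329 with chow, 1.31 and 0.672 with fish oil, 1.5 and 0.584 with coconut fat, 2.58 and 1.32 with lard, and 5.97 and 2.20 with olive oil. Both olive oil arrays also had the highest GAPDH ratios (1.10 and 1.19). The part of these ratios in the core and cap pattern was not tested.

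**Figure D3:**
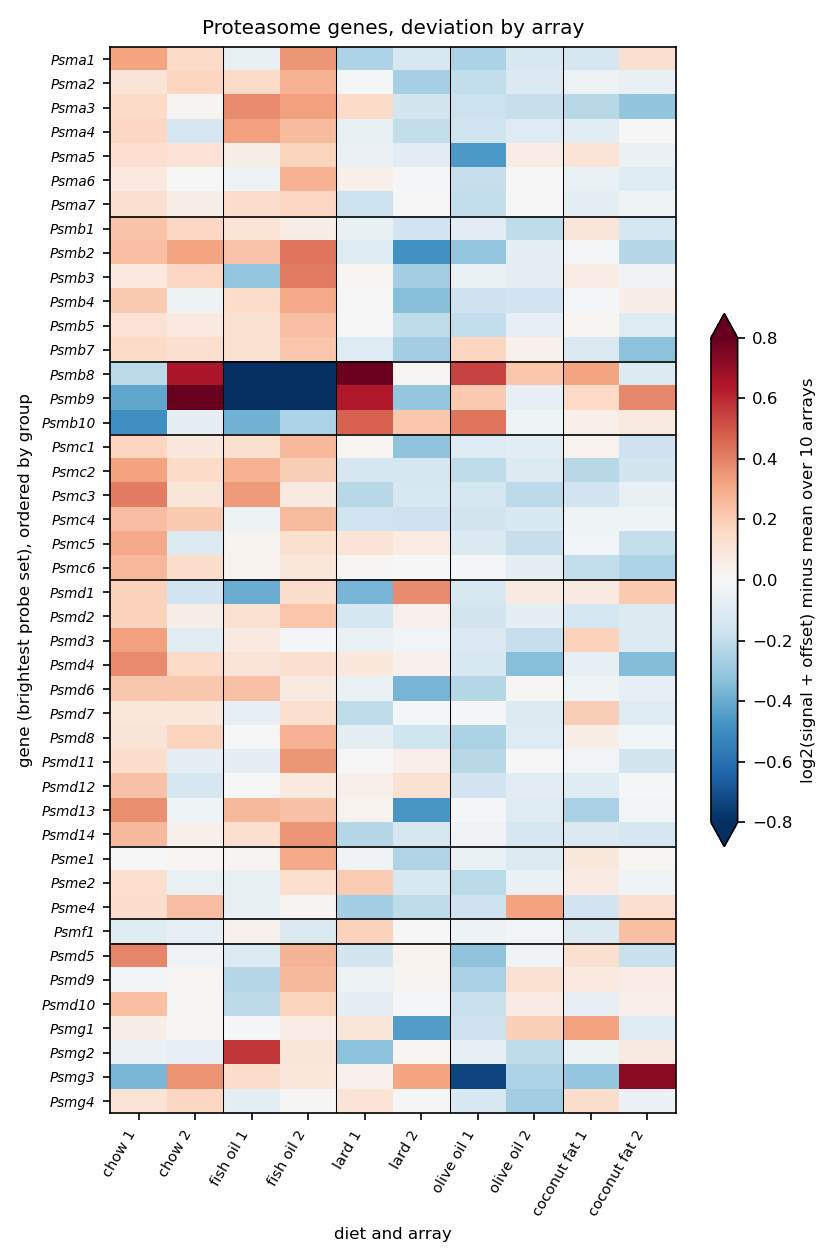
Deviation of log2(signal + 3.1) from each gene's mean over 10 arrays, for 44 proteasome genes (rows, by group) on 10 arrays (columns, by diet), with colours capped at ±0.8. The chow and fish-oil columns are mostly red for the core and cap genes, and the fish-oil columns are blue for Psmb8 and Psmb9.

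Among the beta-ring genes, Psmb2, a structural subunit without a cutting site, had signals of 1401.5 and 1610.7 with fish oil, 1115.2 and 857.2 with lard, 968.0 and 1136.5 with olive oil, 1187.2 and 1022.2 with coconut fat, and 1417.4 and 1491.7 with chow. Fish oil and chow overlapped, and both lay above every array of the other diets. The difference of fish oil from the other high-fat diets was 0.53 on the log2 scale (1.44-fold, SE 0.13, limma adjusted p = 0.143), and that of lard from chow was -0.57 (SE 0.16, limma adjusted p = 0.462). Psmb5, the chymotrypsin-like subunit that Psmb8 replaces, had 1096.9 and 1186.5 with fish oil, 1005.6 and 872.7 with lard, 876.7 and 959.1 with olive oil, 1018.8 and 935.7 with coconut fat, and 1087.7 and 1062.8 with chow. Its fish-oil arrays were the highest and its chow arrays the next, with a log2 difference of 0.27 between fish oil and the other high-fat diets (SE 0.11, limma adjusted p = 0.36). Psmb7, the trypsin-like subunit that Psmb10 replaces, had 892.4 and 956.8 with fish oil, 761.1 and 674.0 with lard, 922.7 and 839.2 with olive oil, 756.2 and 650.7 with coconut fat, and 910.1 and 897.8 with chow. Olive oil stayed close to chow here while lard and coconut fat lay below, and fish oil differed from the other high-fat diets by 0.28 (SE 0.11, limma adjusted p = 0.376). Across arrays Psmb1 ranged from 1448.5 to 1950.8, Psmb3 from 627.9 to 1035.7 and Psmb4 from 1274.6 to 1991.5.

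**Figure D4:**
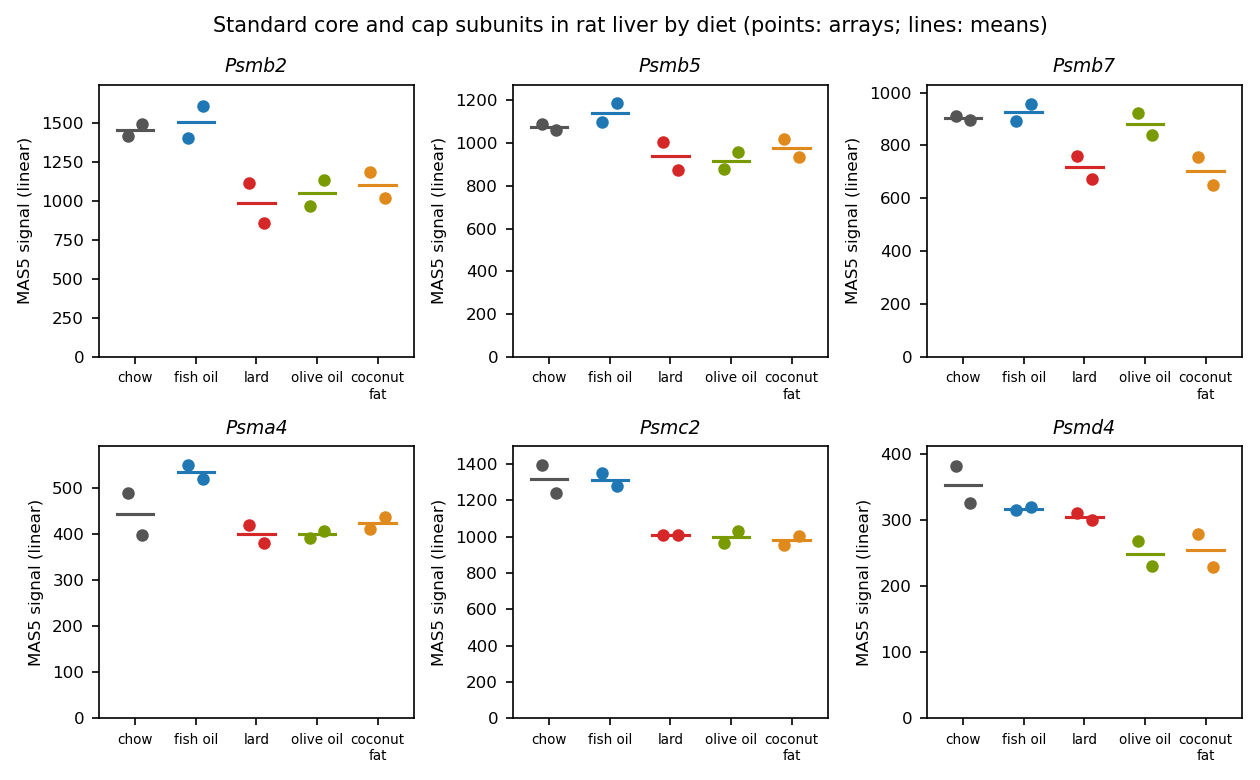
MAS5 signal (linear axis from 0) of 6 standard core and cap genes by diet; points are single arrays and lines are means of 2 arrays. Psmb2 and Psmc2 lie higher with chow and fish oil than with the other 3 diets, whereas Psma4 is highest with fish oil (519.6 and 548.2).

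In the alpha ring, all 7 genes had a positive difference between fish oil and the other high-fat diets (median log2 0.27) and a negative one between each of those diets and chow. Psma4 had signals of 548.2 and 519.6 with fish oil, 419.2 and 379.6 with lard, 390.4 and 406.5 with olive oil, 409.2 and 435.7 with coconut fat, and 489.2 and 396.6 with chow. Only the fish-oil arrays stood apart, above all others, with log2 differences of 0.39 from the other high-fat diets (SE 0.12, limma adjusted p = 0.238) and 0.28 from chow (SE 0.15, limma adjusted p = 0.75). The difference from chow was 0.43 without the first chow array and 0.12 without the second. Psma3 ranged from 210.4 to 343.2 over the 10 arrays and differed by 0.50 between fish oil and the other high-fat diets (SE 0.13, limma adjusted p = 0.162). Psma1 ranged from 589.8 to 899.9, Psma2 from 698.8 to 1023.1, Psma5 from 737.3 to 1148.0, Psma6 from 1643.9 to 2259.3 and Psma7 from 792.3 to 1018.4.

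Of the 6 ATPases that unfold substrates, all were negative against chow with coconut fat, olive oil and lard, and all were positive with fish oil against those diets (median log2 0.26). Psmc2 had signals of 1351.0 and 1279.0 with fish oil, 1012.3 and 1011.2 with lard, 966.2 and 1033.9 with olive oil, 955.5 and 1005.6 with coconut fat, and 1393.3 and 1239.7 with chow. Chow and fish oil formed an overlapping high group and the other 6 arrays a low one, with a log2 difference of 0.40 between fish oil and the other high-fat diets (1.32-fold, SE 0.10, limma adjusted p = 0.155) and of -0.42 between coconut fat and chow (SE 0.13, limma adjusted p = 0.745). Psmc4 had 542.7 and 666.1 with fish oil, 499.8 and 498.8 with lard, 505.4 and 513.0 with olive oil, 545.8 and 546.0 with coconut fat, and 665.5 and 648.1 with chow. Chow lay above lard, olive oil and coconut fat, and the fish-oil arrays lay above lard and olive oil and spanned coconut fat. Psmc6 had 452.1 and 472.4 with fish oil, 447.0 and 443.9 with lard, 440.6 and 419.5 with olive oil, 385.8 and 372.9 with coconut fat, and 532.7 and 488.5 with chow. Its chow arrays were above all others and its coconut fat arrays below, a log2 difference of -0.42 (SE 0.14, limma adjusted p = 0.785). Psmc1 ranged from 305.6 to 458.0, Psmc3 from 482.0 to 749.1 and Psmc5 from 311.4 to 439.6.

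Of the 11 non-ATPase genes of the cap, 10 were positive with fish oil against the other high-fat diets. Psmd4, a receptor for ubiquitin chains, had signals of 314.4 and 319.1 with fish oil, 309.4 and 299.3 with lard, 267.1 and 229.9 with olive oil, 278.8 and 229.1 with coconut fat, and 380.5 and 325.5 with chow. Chow was highest, fish oil and lard were close together, and olive oil and coconut fat lay below them. The log2 difference from chow was -0.50 with olive oil (SE 0.17, limma adjusted p = 0.437) and -0.47 with coconut fat (SE 0.17, limma adjusted p = 0.817). Psmd14, the deubiquitinase of the cap, had its fish-oil arrays (534.4 and 623.9) above all 6 other high-fat arrays (416.1 to 478.0), with a log2 difference of 0.37 (SE 0.12, limma adjusted p = 0.251). The remaining ranges were 131.4 to 227.6 for Psmd1, 431.1 to 556.9 for Psmd2, 193.2 to 276.5 for Psmd3, 386.6 to 590.7 for Psmd6 and 414.6 to 547.5 for Psmd7. They were 652.3 to 941.0 for Psmd8, 785.9 to 1170.3 for Psmd11, 251.8 to 330.5 for Psmd12 and 107.4 to 194.1 for Psmd13.

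None of the 3 activator genes passed the test in any comparison, where 0.0% to 0.424% of all probe sets did. Psme1, a subunit of the PA28 activator that is also interferon-inducible, had signals of 1862.3 and 2266.7 with fish oil, 1802.2 and 1553.2 with lard, 1767.1 and 1702.3 with olive oil, 1948.0 and 1855.2 with coconut fat, and 1831.2 and 1858.7 with chow. Its fish-oil arrays were above chow and overlapped coconut fat, with a log2 difference of 0.22 from the other high-fat diets (SE 0.11, limma adjusted p = 0.493) that was 0.36 without the first fish-oil array, 0.08 without the second and 0.13 after quantile normalization. Psme2, its partner, had 657.2 and 751.2 with fish oil, 788.8 and 626.2 with lard, 588.3 and 663.3 with olive oil, 715.6 and 667.4 with coconut fat, and 752.7 and 658.3 with chow. The fish-oil arrays overlapped those of every other diet, and fish oil differed from the other high-fat diets by 0.06 (SE 0.13, limma adjusted p = 0.909). This difference ran from -0.03 to 0.16 when each array was left out, and was negative without the second fish-oil array. Whether Psme1 or Psme2 differs from Psmb8 in its response was not tested. Psme4, which encodes the PA200 activator, ranged from 404.2 to 612.1. The inhibitor gene Psmf1 ranged from 488.7 to 625.7 and was the only member outside the immunoproteasome, besides Psmd1 and Psmc3ip, with a negative difference between fish oil and the other high-fat diets (-0.08). It ran from -0.16 without the first fish-oil array to -0.0047 without the second.

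The assembly chaperones help the core or the base of the cap to form. All 7 were positive with fish oil against the other high-fat diets, where 47.4% of all probe sets were. Their log2 differences ran from 0.003 to 0.42, with a median of 0.04. Of the 7, 1 was higher at an unadjusted limma p under 0.05, where 4.91% of all probe sets were. Psmg2 differed by 0.42 (SE 0.18, limma adjusted p = 0.379), or by 0.19 when the first fish-oil array was left out and 0.66 when the other was, and its signals ranged from 103.1 to 193.5. Psmg1 ranged from 439.2 to 749.5, Psmg3 from 59.5 to 168.4, Psmg4 from 333.6 to 455.9, Psmd5 from 232.6 to 382.9, Psmd9 from 180.3 to 259.4 and Psmd10 from 188.3 to 257.7. Psmc3ip, a meiotic recombination factor, ranged from 25.8 to 68.5, and Psme3ip1 from 92.9 to 159.9.

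Further probe sets of core and cap genes had the sign of the brightest one between fish oil and the other high-fat diets, but 1 each of Psme1 (-0.28), Psme4 (-0.24) and Psmd9 (-0.25) had the opposite sign. The 3 probe sets of Psmd14 differed from chow with coconut fat by -0.28, -0.43 and -1.15, and the last is the dimmest, with signals of 33.0 to 92.3. The 3 probe sets of Psmc6 differed from chow with lard by -0.19, 0.26 and 0.30. The 2 probe sets of Psme1 differed from chow with lard by -0.14 and 0.97, and the second had signals of only 19.0 to 64.5. The 4 probe sets left out as dim had signals of 1.4 to 11.3 for Psmc4, 2.7 to 33.3 for Psmd11, and 4.1 to 17.7 and 2.0 to 25.5 for Psmb5.

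Other genes of the ubiquitin-proteasome pathway were measured beside the subunits. Of 27 tested, 16 were positive with fish oil against the other high-fat diets (median log2 0.04), and 0 passed, where 47.4% and 0.424% of all probe sets did. Of the 27 genes, 4 were higher at an unadjusted limma p under 0.05, where 4.91% of all probe sets were. Both fish-oil arrays lay above all 6 others for 4 genes, and for 5.96% of all probe sets. Against chow the median log2 was -0.11 for lard, -0.05 for olive oil and -0.10 for coconut fat. Whether these genes differ from the core and cap genes was not tested. Usp14, a deubiquitinase that binds the cap, had signals of 550.8 and 544.2 with fish oil, 400.1 and 415.9 with lard, 345.0 and 449.4 with olive oil, 366.3 and 403.6 with coconut fat, and 606.0 and 493.5 with chow. Its fish-oil and chow arrays overlapped and lay above the other 6, as for Psmc2, and the log2 difference from the other high-fat diets was 0.47 (SE 0.14, limma adjusted p = 0.21). Zfand2a, a stress-induced proteasome-associated gene, differed by 1.80 (SE 0.63, limma adjusted p = 0.284). Its signals were low and scattered, from 6.6 to 102.7 over the 10 arrays.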

How the data were processed

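RNA from rat liver was hybridised to Affymetrix Rat 230 2.0 arrays, 2 per diet for 5 diets. The deposited values are MAS5 signal intensities, per the submitters' processing notes, on a linear scale, and their trimmed mean of about 100 per array was read from the values. Nothing else of the authors' processing is given in the sources used here. Signals were not rescaled. An offset of 3.1, the value below which 10% of the signals fell, was added before taking log2, and the 40% of probe sets with the lowest mean on that scale (below a signal of 17.8) were left out, as were 57 control probe sets. Limma 3.58.1 in R 4.3.3 fitted 1 mean per diet over all 10 arrays, with an intensity trend, 5 residual and 5.96 prior degrees of freedom, and Benjamini-Hochberg adjustment over 18625 probe sets at 0.05. The fit was checked only on simulated data with log2 shifts of 1 and 2, so the check does not cover the smaller core and cap differences. The number of arrays limits the precision.

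Gene names come from the platform annotation: 20826 probe sets have 1 symbol, 436 several and 9780 none. Full values per array are given for the immunoproteasome genes, Psmb5, Psmb7, Psme1, Psme2, every member past the threshold and the 3 members with the smallest unadjusted p in each comparison, by brightest probe set. Of each pathway gene list, those past the threshold or the 2 with the smallest p between fish oil and the other high-fat diets are named. Genes with the smallest p in the comparisons with chow are not named, except Ifit2. Psma3, Psmd1, Psmd14, Psmg2, Ptprc, Alas2 and Hbb were named after their values were seen. Members and lists were chosen with earlier results of these data known. Promoters are from RefSeq, build GRCr8. Alternatives covered normalization, offset, filter, variance model, the diets in the fit, a replicate block and each array left out. Same-numbered arrays of different diets did not deviate together: 0 of 10 diet pairs had a correlation over 0.1, so the numbers were not taken as pairs.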

Additional observations from a re-analysis of the deposited data

Results flagged for a closer look

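Psmb8 differed between the fat sources of the high-fat diets: with fish oil it was -1.40 on the log2 scale from the mean of lard, olive oil and coconut fat (limma adjusted p = 0.0426). Both fish-oil arrays were lower than all 6 arrays of lard, olive oil and coconut fat, an arrangement that 6.8% of all probe sets showed.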

How the results depend on the processing

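The count of members called between fish oil and the other 3 high-fat diets, 1 (Psmb8), was 0 without the intensity trend of the variance and 0 with a replicate block (limma adjusted p = 0.238 and 0.0541), and it ran from 0 to 1 when each array was left out in turn. Over the 10 settings the adjusted p of Psmb8 ran from 0.0187 to 0.238, and over the 10 arrays left out from 0.0193 to 0.197. Counts of members called in the other comparisons stayed at 0 in every setting run and with every array left out. Of the differences given for named genes, those of Psmd1 and Psme2 between fish oil and the other 3 high-fat diets changed sign: over the arrays left out, Psmd1 ran from -0.44 to 0.10 and was positive without the first fish-oil array, and Psme2 ran from -0.032 to 0.16 and was negative without the second. The F-test was not run for the fit with only the diets compared. With the replicate block, the count of probe sets called over the whole array between fish oil and the other 3 high-fat diets went from 79 to 60, and in fish oil against chow from 29 to 20. Same-numbered arrays of different diets had correlated deviations of -0.03 to 0.08, positive in 2 of 10 diet pairs. Signals near the blank-control level, such as those of the 4 dim member probe sets, have no usable order.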
